A study of Arabidopsis thaliana with 17 samples.

Results

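COR47 (AT1G20440), ERD10 (AT1G20450) and LTI30 (AT3G50970) are dehydrin genes of Arabidopsis thaliana, and each had 1 probe set on the array. Their probe sets were found by gene name and identifier, and they make up 3 of the 17021 genes named by a probe set of their own, among 18107 named probe sets tested and 28583 in all. The platform annotation names COR47 and LTI30. ERD10 is named only by the study's annotation of genes that changed in a line overexpressing NBR1.

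Dehydrins are hydrophilic, largely unfolded proteins of the late embryogenesis abundant (LEA) class, which accumulate in seeds and in vegetative tissue during cold, drought, salt stress or treatment with abscisic acid (ABA). Their lysine-rich K-segments can fold into helices on membrane surfaces, and several members protect membranes and enzymes from damage by drying or freezing in vitro. COR47 (cold-regulated) and ERD10 (early responsive to dehydration) are related acidic dehydrins that also carry a stretch of serines, the S-segment, and their genes are neighbours on chromosome 1. LTI30 (low temperature-induced, also called XERO2) has K-segments and no S-segment, and its gene on chromosome 3 lies beside that of another dehydrin, XERO1.

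The tested plants were KO1 and KO3, lines of the Col-0 background with a CRISPR/Cas9 deletion within the autophagy cargo receptor gene NBR1. Both were homozygous, and the transgenes had been crossed out. The control (WT) was unmodified Col-0, and all lines were grown hydroponically in short days for 4 weeks with no stress treatment given in the labels. Total RNA of shoots and of roots, each preparation drawn from at least 3 plants, was hybridised to Affymetrix Arabidopsis Gene 1.1 ST arrays, with 3 arrays each for KO1 roots, KO3 roots, KO1 shoots, KO3 shoots and WT shoots, and 2 for WT roots (replicates 1 and 3). The labels call the replicates biological but do not say whether they came from separate boxes, so that p-values measure the spread between these preparations.

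The signals are RMA values on the log2 scale, where 1 unit is a doubling. NBR1 itself averaged 3.55 in KO1 roots and 4.09 in KO3 roots, against 7.32 in WT roots, and 1.63 in KO1 shoots and 1.67 in KO3 shoots, against 6.18 in WT shoots. All 4 measured green-tissue genes of a list of 26 were higher on every shoot array than on every root array, and all 4 measured root genes of a list of 13 showed the opposite. One shoot array stood apart: KO1 shoots replicate 1 had a spread of signals across probe sets (SD) of 1.41, while the other 8 shoot arrays had 1.94 to 2.07, and its mean correlation with the other shoot arrays was 0.934. In roots the array with the lowest mean correlation was WT roots replicate 1 (0.978). Results that rest on these arrays are given with and without them.

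In roots, transcripts of all 3 dehydrins were higher in the KO lines than in WT on every array. COR47 signals were 9.48, 9.74 and 9.41 on the KO1 root arrays and 9.18, 9.59 and 9.22 on the KO3 root arrays, against 7.92 and 8.32 in WT. The lowest KO1 array lay 1.09 above the higher WT array, and the lowest KO3 array lay 0.86 above it. ERD10 signals were 8.27, 8.65 and 8.14 on the KO1 root arrays and 8.20, 8.47 and 8.22 on the KO3 root arrays, against 6.83 and 7.12 in WT. Here the gaps to the higher WT array were 1.02 for KO1 and 1.08 for KO3, so the KO lines again did not overlap with WT. LTI30 signals were 5.61, 5.80 and 4.90 on the KO1 root arrays and 4.54, 6.26 and 5.66 on the KO3 root arrays, against 3.97 and 3.74 in WT. LTI30 was thus the member with the widest scatter among KO roots, and its gaps to WT were 0.93 for KO1 and 0.57 for KO3. In both KO lines replicate 2 was the highest root array for each of the 3 genes. Such separation was not rare among all probe sets tested: every KO array exceeded every WT array for 11.4% of them in KO1 roots, 12.4% in KO3 roots and 5.82% in both lines together.

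**Figure D1:**
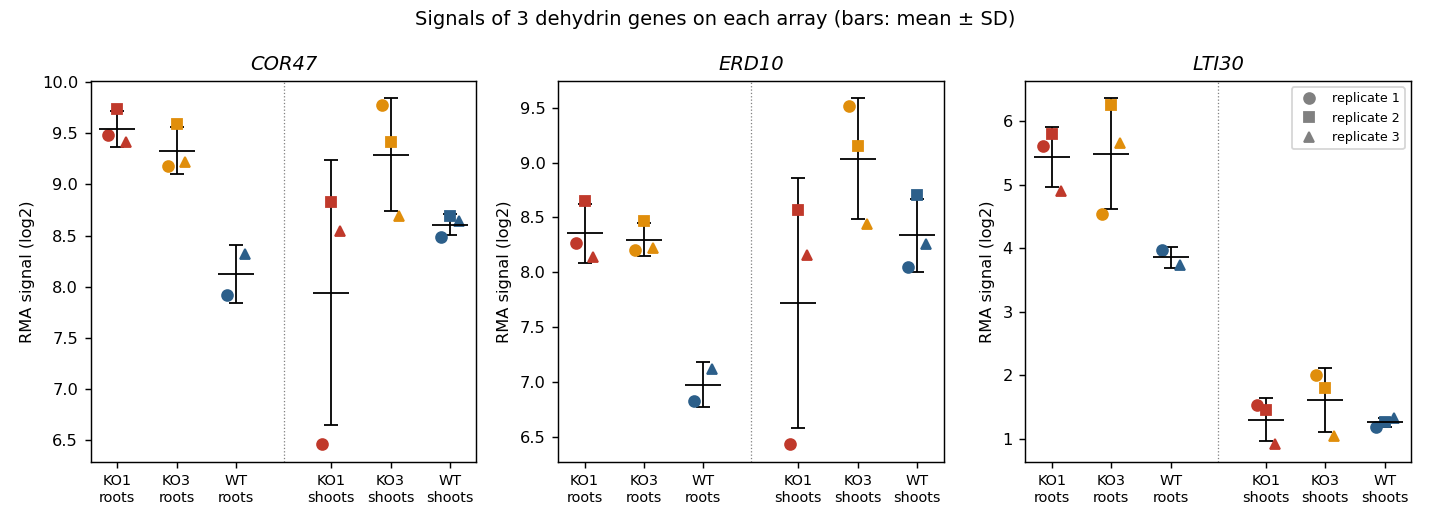
RMA signals (log2, vertical axis) of COR47, ERD10 and LTI30 on each of the 17 arrays, by line and organ, where each symbol is 1 array, the shape gives the replicate number, and the bars are the mean ± SD of the group. In roots every KO1 and KO3 array lies above both WT arrays for all 3 genes, and in shoots the KO1 array of replicate 1 is the lowest for COR47 (6.46) and ERD10 (6.43).

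COR47 and ERD10 rose in roots of both lines, and LTI30 had a fold change at least as large with a wider error. COR47 averaged 9.54 ± 0.17 in KO1 roots (SD, n = 3) and 9.33 ± 0.23 in KO3 roots (n = 3), against 8.12 ± 0.28 in WT roots (n = 2). This is 2.68-fold higher in KO1 (log2 fold change 1.42, 95% interval 1.01 to 1.83, limma adjusted p = 0.0208) and 2.31-fold higher in KO3 (1.21, 0.80 to 1.62, limma adjusted p = 0.0340). ERD10 averaged 8.35 ± 0.27 in KO1 roots and 8.30 ± 0.15 in KO3 roots, against 6.98 ± 0.21 in WT roots. It was 2.60-fold higher in KO1 (1.38, 0.97 to 1.78, limma adjusted p = 0.0208) and 2.50-fold higher in KO3 (1.32, 0.92 to 1.73, limma adjusted p = 0.0247). The 2 neighbouring genes therefore differed from WT by similar amounts. LTI30 averaged 5.44 ± 0.47 in KO1 roots and 5.49 ± 0.87 in KO3 roots, against 3.86 ± 0.16 in WT roots. Its means were 2.99-fold higher in KO1 (1.58, 0.67 to 2.49) and 3.10-fold higher in KO3 (1.63, 0.72 to 2.54), but it did not pass the test across all probe sets (limma adjusted p = 0.253 and 0.175). With the values unchanged, the calls of COR47 and ERD10 were lost in 1 fit of all 17 arrays (limma adjusted p = 0.303 to 0.618, both lines averaged included), in a model without moderated variances (0.295 to 0.509) and, for the single lines, in fits of just the groups compared (0.0544 to 0.14). Over all 18107 probe sets, the model without moderated variances called 0 higher in KO1, in KO3 and for both lines averaged. Fits of just the groups compared called 0 higher in KO1 and 4 in KO3. The fit of all 17 arrays called 4 higher in KO1, 13 in KO3 and 18 for both averaged. It shares 1 estimate of the spread between roots and shoots, so KO1 shoots replicate 1 enters it. For COR47 in KO1 roots the standard error was 0.495 in that fit and 0.186 in the fit of the root arrays. The part of the shoot arrays in the lost calls was not tested.

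By adjusted p, 2 of the 3 genes were therefore called higher in each line, while 0.0884% of all probe sets were called higher in KO1 roots and 0.121% in KO3 roots. None was called lower, as 0.0387% of all probe sets were in KO1 roots and 0.0939% in KO3 roots. All 3 genes passed the study's less strict thresholds, an unadjusted p under 0.05 with a change of at least 1.5-fold, which 1.77% of probe sets passed upwards in KO1 roots and 2.4% in KO3 roots. The 3 genes, and the gene lists compared below, were chosen with earlier results of these data known. Their shares set against all probe sets are therefore a description and no test. Among the 18107 probe sets, 7 had a larger rise than LTI30 in KO1 roots and 6 in KO3 roots. For COR47 these numbers were 14 and 32, and for ERD10 they were 17 and 18. KO1 and KO3 roots were not told apart for any of the 3 genes: KO1 differed from KO3 by 0.21 for COR47 (95% interval -0.15 to 0.58), 0.06 for ERD10 (-0.31 to 0.42) and -0.05 for LTI30 (-0.86 to 0.76), each with a limma adjusted p of 0.997. The intervals of COR47 and ERD10 lie well below 1 log2 unit in either direction, and that of LTI30 comes close to it.

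Because the 2 WT root arrays served as control for both lines, the results of the lines are not independent. With both lines averaged, COR47 was 1.32 higher than WT (limma adjusted p = 0.0108), ERD10 1.35 higher (adjusted p = 0.0101) and LTI30 1.61 higher (adjusted p = 0.114), where 0.254% of all probe sets were called higher. The small number of WT root arrays limited the tests. Exact permutation tests of single genes (two-sided) gave p = 0.2 for each gene in each line and p = 0.0714 for the 6 KO against the 2 WT arrays, which are the smallest values these designs allow. When WT roots replicate 1 was left out, the spread of the single remaining WT array had to be taken from the KO lines. That fit cannot decide a call, so only its sizes are given. COR47 was then at 1.22 in KO1 and 1.01 in KO3, ERD10 at 1.23 and 1.18, and the averages of both lines at 1.12 for COR47 and 1.21 for ERD10.

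The calls per line depended on single KO root arrays, although the sizes changed little. In KO1, COR47 and ERD10 missed the threshold without KO1 replicate 1 (limma adjusted p = 0.0864 for both), without KO1 replicate 2 (0.0874 and 0.0753) and without KO3 replicate 3 (0.0562 and 0.0578). In KO3, both missed it without KO1 replicate 1 (0.0671 and 0.0521), without KO3 replicate 2 (0.136 and 0.112) and without KO3 replicate 3 (0.0588 for both), and COR47 also without KO1 replicate 2 (0.0655) or KO3 replicate 1 (0.0545). Over all probe sets, those fits called 1, 4 and 5 higher in KO1, in the order given, against 16 with all arrays. In KO3 they called 3, 0, 0, 9 and 21 higher, in the order given, against 22 with all arrays. For the average of both lines, the 2 genes passed in every fit that left out 1 KO array. A fit without a WT array leaves 1 WT array and cannot decide a call. LTI30 went the other way: without KO3 roots replicate 1, its lowest KO array, it passed in KO3 (2.11, limma adjusted p = 0.0422) and in the average of both lines (1.84, adjusted p = 0.0243). It passed in no other fit that left out 1 KO array, and in none of them for KO1.

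Signals of the 4 green-tissue genes, averaged per array, were 2.12 to 2.22 in KO1 roots and 2.04 to 3.18 in KO3 roots, against 2.39 to 2.56 in WT roots, and those of the 4 root genes were 5.05 to 5.5 in KO1 roots and 4.85 to 5.42 in KO3 roots, against 5.30 to 5.43 in WT roots. None of these 8 genes passed the test in roots. Their part in the dehydrin result was not tested. In whole organs a larger share of cells that express a gene and more RNA per cell cannot be told apart.

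In shoots the 3 genes gave no call in either line, and COR47 and ERD10 had opposite signs in KO1 and KO3. COR47 signals were 6.46, 8.83 and 8.54 in KO1 shoots and 9.77, 9.41 and 8.69 in KO3 shoots, against 8.49, 8.69 and 8.64 in WT shoots. ERD10 signals were 6.43, 8.57 and 8.16 in KO1 shoots and 9.52, 9.15 and 8.44 in KO3 shoots, against 8.05, 8.70 and 8.26 in WT shoots. For both genes KO1 replicate 1 was more than 1 log2 unit below any other shoot array, while KO3 replicates 1 and 2 were above every WT array. COR47 averaged 7.94 ± 1.29 in KO1 shoots and 9.29 ± 0.55 in KO3 shoots, against 8.61 ± 0.10 in WT shoots (SD, n = 3 each). ERD10 averaged 7.72 ± 1.14 in KO1 shoots and 9.04 ± 0.55 in KO3 shoots, against 8.34 ± 0.33 in WT shoots.

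The KO1 shoot differences were -0.66 for COR47 (95% interval -1.93 to 0.60) and -0.62 for ERD10 (-1.79 to 0.56), each with a limma adjusted p of 0.714. Their exact permutation p-values were 0.8 and 0.5 (two-sided, smallest possible 0.1). The KO3 shoot differences were 0.68 for COR47 (-0.58 to 1.95) and 0.70 for ERD10 (-0.47 to 1.87), each with a limma adjusted p of 0.998 and an exact permutation p of 0.2. By adjusted p, 0 of the 3 genes were called in either direction, where 0% of probe sets were called higher and 0.309% lower in KO1 shoots, and 0.00552% higher and 0.138% lower in KO3 shoots. At an unadjusted p under 0.05 the count was also 0 of 3 in each line, against 9.95% of probe sets in KO1 shoots and 5.03% in KO3 shoots. The KO3 result rests on KO1 shoots replicate 1 as well, because the lines share 1 estimate of the spread. Without that array the KO3 differences kept their size, and the standard error was 0.24 for COR47 (0.56 with it; unadjusted p = 0.0181, limma adjusted p = 0.371) and 0.27 for ERD10 (0.52 with it; unadjusted p = 0.0282, limma adjusted p = 0.436). COR47 and ERD10 in KO3 shoots then passed the study's less strict thresholds, as 2.05% of all probe sets did upwards.

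**Figure D2:**
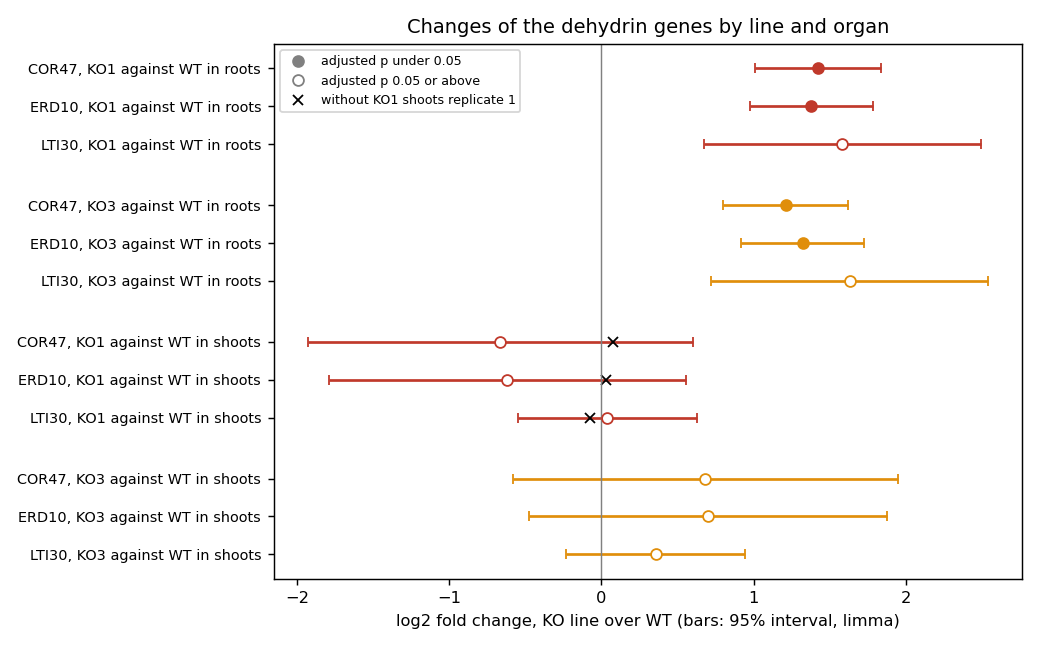
Log2 fold changes of a KO line over WT (horizontal axis) with 95% intervals from limma, for each gene, line and organ, where filled circles have an adjusted p under 0.05, open circles do not, and crosses give KO1 shoots without replicate 1. The 6 root estimates lie between 1.21 and 1.63, and the KO1 shoot estimates of COR47 and ERD10 move from below 0 to 0.08 and 0.03 without that array.

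The negative shoot values of COR47 and ERD10 in KO1 rested on 1 array. Without KO1 shoots replicate 1, COR47 differed from WT by 0.08 in KO1 shoots and ERD10 by 0.03 (limma adjusted p = 0.970 and 0.991). On that array the whole range of signals was compressed, and COR47 still ranked high: on KO1 shoot arrays it stood at the 98.3rd to 98.6th percentile of all probe sets, against 97.9th to 98.1st on WT shoot arrays. After quantile normalisation within shoots, which gives all arrays the same range, COR47 was at 8.64, 8.73 and 8.49 in KO1 shoots and 9.75, 9.10 and 8.29 in KO3 shoots, against 8.14, 8.37 and 8.30 in WT shoots. The KO1 difference was then 0.35 for COR47 (limma adjusted p = 0.738) and 0.42 for ERD10 (adjusted p = 0.680), positive where it had been negative. Shoot directions of COR47 and ERD10 in KO1 thus depended on how that array was treated, and no setting gave a call.

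**Figure D3:**
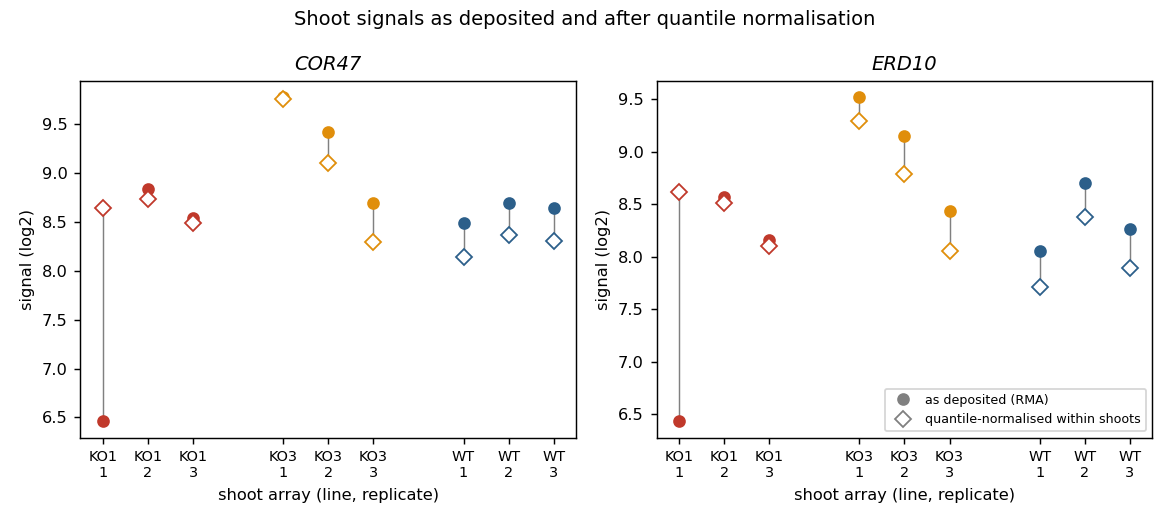
Signals (log2, vertical axis) of COR47 and ERD10 on the 9 shoot arrays as deposited (filled circles) and after quantile normalisation within shoots (open diamonds), by line and replicate. KO1 replicate 1 moves from 6.46 to 8.64 for COR47 and from 6.43 to 8.62 for ERD10, into the range of the other arrays.

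LTI30 was near the bottom of the signal range in shoots. Its signals were 1.53, 1.45 and 0.91 in KO1 shoots and 2.00, 1.80 and 1.04 in KO3 shoots, against 1.18, 1.27 and 1.32 in WT shoots, and 7 of the 9 values were below the median of their own array. The differences from WT were 0.04 in KO1 (95% interval -0.55 to 0.63, limma adjusted p = 0.976) and 0.36 in KO3 (-0.23 to 0.94, adjusted p = 0.998). In roots it was above the array's median on all 8 arrays, at the 74.3rd to 92.0th percentile in KO roots and the 63.7th to 68.3rd percentile in WT roots. COR47, in contrast, stood at or above the 97.9th percentile on all 17 arrays, and ERD10 at or above the 95.7th. Whether shoot and root arrays were normalised together is not stated, so signal levels are not compared between organs.

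The KO lines were also compared with each other in shoots, with no call. KO1 was 1.35 below KO3 for COR47 (95% interval -2.61 to -0.08) and 1.32 below for ERD10 (-2.49 to -0.14), with unadjusted p-values of 0.0394 and 0.0320 in limma and an adjusted p of 0.648 for both, where 6.69% of all probe sets had an unadjusted p under 0.05. Without KO1 shoots replicate 1 the differences were -0.61 and -0.67, and after quantile normalisation of all shoot arrays they were -0.43 for COR47 and -0.30 for ERD10 (limma adjusted p = 0.884 and 0.912). With all arrays, LTI30 differed between the lines by -0.32 (limma adjusted p = 0.723).

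Whether the effect of the deletion differed between organs was tested as the shoot effect minus the root effect. In KO1 this was -2.09 for COR47 (95% interval -3.50 to -0.67), -1.995 for ERD10 (-3.31 to -0.68) and -1.54 for LTI30 (-2.70 to -0.38). In KO3 it was -0.53 for COR47 (-1.94 to 0.89), -0.62 for ERD10 (-1.94 to 0.70) and -1.28 for LTI30 (-2.43 to -0.12). All 6 values were negative, but none passed the test over all probe sets (limma adjusted p = 0.238 to 0.315 in KO1 and 0.733 to 0.984 in KO3), where 0.348% of probe sets were called lower in KO1 and 0.0939% in KO3. Without KO1 shoots replicate 1 the KO1 values were -1.34 for COR47 and -1.35 for ERD10. The calls in roots and their absence in shoots are therefore not shown to differ.

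COR47 and ERD10 varied alike between arrays. They are related genes, and whether probes of one also bind transcripts of the other was not tested, which bears on every value that sets them side by side. Within an array, the ERD10 signal minus the COR47 signal was -1.27 to -1.09 in KO1 roots and -1.12 to -0.98 in KO3 roots, against -1.20 to -1.09 in WT roots. In shoots it was -0.38 to -0.03 in KO1 and -0.26 to -0.25 in KO3, against -0.44 to 0.01 in WT. Since different probe sets bind with different strength, the sign of this difference says nothing of which gene was more abundant. It averaged -1.12 ± 0.10 over the 8 root arrays and -0.25 ± 0.15 over the 9 shoot arrays (SD), with no overlap between the organs. A separate normalisation of the organs, which the sources leave unstated, or a compressed array would also alter this difference. Among the lines the ranges overlapped in each organ. KO1 shoots replicate 1, which was low for both genes, had a difference of -0.03, inside the range of the shoot arrays. These values are a description and were not tested.

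**Figure D4:**
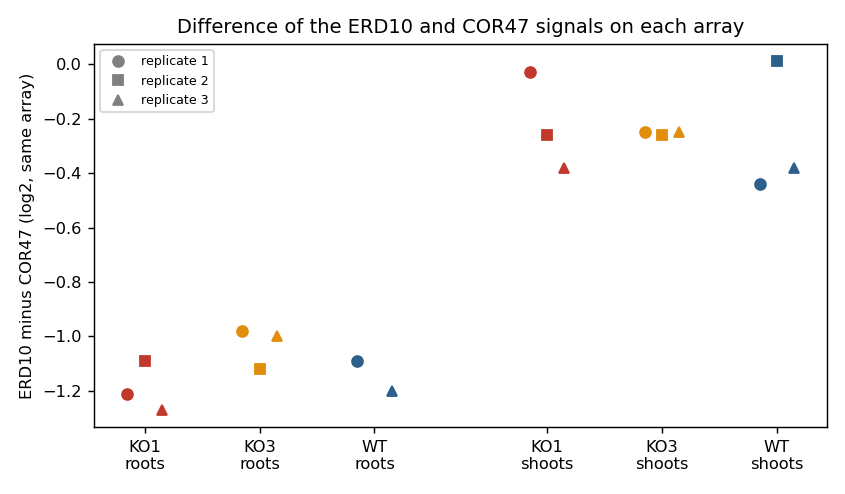
ERD10 signal minus COR47 signal on the same array (log2, vertical axis) for the 17 arrays, by line and organ, where each symbol is 1 array and the shape gives the replicate number. The 8 root arrays lie between -1.27 and -0.98 and the 9 shoot arrays between -0.44 and 0.01, with the lines intermingled within each organ.

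After the mean of each organ was subtracted, ERD10 was the gene most like COR47 among 17020 other named genes, and COR47 the one most like ERD10 (Pearson r = 0.987 over the 17 arrays). Probe sets without a name were not compared. Next to COR47 came ADC2 (0.970), which encodes the arginine decarboxylase of putrescine synthesis, the desiccation-responsive gene RD29A, also called LTI78 (0.957), UGT74B1 (0.954), a glucosyltransferase of glucosinolate synthesis, and COR413-PM1 (0.944), a cold-regulated plasma membrane protein. For ERD10 they were UGT74B1 (0.971), RD29A (0.948), ADC2 (0.947) and the early dehydration-responsive gene ERD4 (0.920). Without KO1 shoots replicate 1, the values with COR47 were 0.938 (ADC2), 0.911 (RD29A), 0.909 (UGT74B1) and 0.882 (COR413-PM1). With ERD10 they were then 0.947 (UGT74B1), 0.907 (RD29A), 0.905 (ADC2) and 0.8855 (ERD4). The list of LTI30 held none of these. It began with SWEET16 (0.925), a vacuolar sugar transporter, and went on with AT1G62975 (0.896), cwINV6 (0.894), named as a cell wall invertase, AT4G22610 (0.884) and DREB2A (0.867), a transcription factor of the drought response. Without KO1 shoots replicate 1 these values were 0.881 to 0.925. ERD10, ADC2, RD29A, COR413-PM1, ERD4 and DREB2A were named only by the study's annotation of genes that changed in the line overexpressing NBR1.

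LTI30 itself correlated with COR47 at 0.534 and with ERD10 at 0.575. Without KO1 shoots replicate 1 these values were 0.824 and 0.821 over 16 arrays, while that between COR47 and ERD10 was 0.979. The arrays share lines and organs, and whether they were normalised together is not stated, so these correlations are descriptions without a test. For DREB2A and LTI30, r was 0.974 over the 8 root arrays and 0.119 over the 9 shoot arrays, where LTI30 was near the lowest signals.

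Of 10 dehydrin genes listed, 8 were measured under a name, and ERD14 and RAB18 were not analysed here. ERD10 was counted only because the study's annotation lists it as changed in the line overexpressing NBR1. A gene without a platform name that did not change there could not be counted. In roots 2 of the 8 (COR47 and ERD10) rose in each line, none fell, and 6 did not pass, where 0.0884% of all probe sets were called higher in KO1 and 0.121% in KO3. The median log2 fold change of the 8 was 0.19 in KO1 roots and 0.07 in KO3 roots, against 0.00 over all probe sets in each. XERO1, the neighbour of LTI30, was at -0.19 in KO1 roots and -0.23 in KO3 roots, in contrast with the positive values of LTI30. AT1G54410 had high signals in every root array (8.00 to 8.28) and fold changes of -0.04 and 0.03. The remaining 3 were at -0.17 and -0.09 (AT2G21490), 0.28 and 0.10 (AT4G38410), and 0.11 and 0.02 (AT4G39130). XERO1 and these 3 genes were below the array's median on all 17 arrays. In shoots 0 of the 8 passed in either line. AT1G54410 was at -0.83 in KO1 shoots (limma adjusted p = 0.502), with its lowest signal, 6.17, on KO1 shoots replicate 1. Without WT roots replicate 1 the median of the 8 was 0.29 in KO1 roots and 0.16 in KO3 roots.

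**Figure D5:**
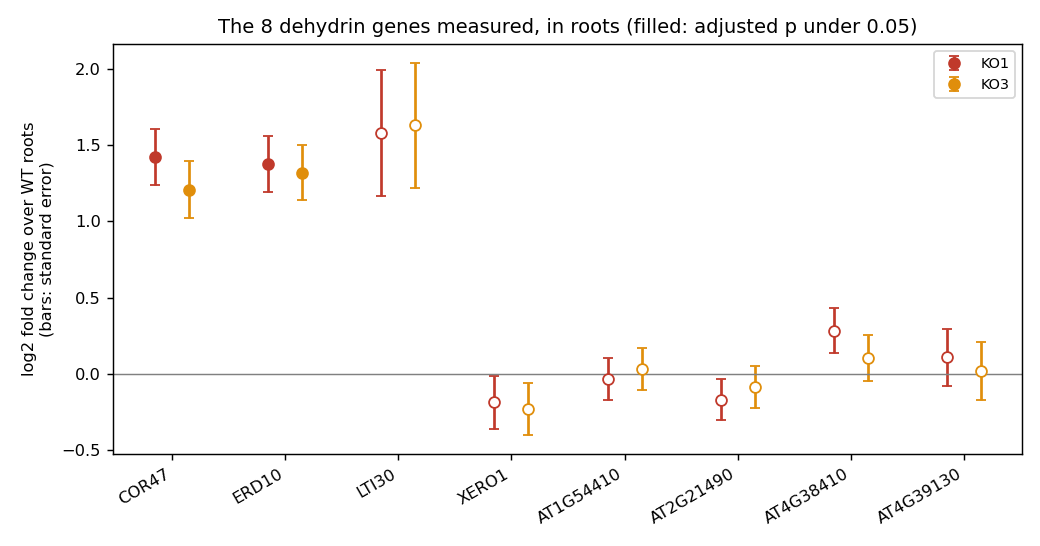
Log2 fold changes over WT roots (vertical axis, bars are the standard error from limma) of the 8 dehydrin genes measured, with KO1 left of KO3, where filled circles have an adjusted p under 0.05. COR47, ERD10 and LTI30 lie between 1.21 and 1.63, and the other 5 between -0.23 and 0.28.

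Genes of the cold and C-repeat binding factor (CBF) response, the pathway through which low temperature induces COR47 and its relatives, were listed for comparison. Of 19 such genes 12 were measured under a name, and CBF1, CBF2 and CBF3 were not among them. RD29A, COR413-PM1 and DREB2A were counted only because the study's annotation lists them as changed in the line overexpressing NBR1. Genes without a platform name that did not change there could not be counted, so the 12 are not an even sample of the list. In roots 2 of the 12 rose in each line, 0 fell and 10 did not pass: COR413-PM1 was at 1.49 in KO1 and 1.29 in KO3 (limma adjusted p = 0.0208 and 0.0288), and RD29A was the other gene. The median of the 12 was 0.39 for KO1 and 0.41 for KO3. By the study's thresholds 5 passed in KO1 roots (RD29A, COR413-PM1, DREB2A, KIN2 and GOLS3) and 4 in KO3 roots (the same without GOLS3), where KIN2 and GOLS3 are named because of these counts. Over all probe sets the shares called higher were 0.0884% for KO1 and 0.121% for KO3 by adjusted p, and 1.77% and 2.4% by the study's thresholds. COR15A and COR15B, which encode chloroplast proteins that protect membranes from freezing and belong to the same cold response, did not pass. COR15A was at -0.18 in KO1 roots and 0.35 in KO3 roots, and COR15B at -0.07 and -0.04. DREB2A was at 1.16 in KO1 roots and 1.00 in KO3 roots (limma adjusted p = 0.1402 and 0.168). In shoots 0 of the 12 passed in either line. Without WT roots replicate 1 the median of the 12 was 0.425 in KO1 roots and 0.35 in KO3 roots.

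Of 16 other LEA genes listed, which include COR15A and COR15B, 9 were measured, 0 passed by adjusted p in either organ or line, and their medians were -0.15 in KO1 roots and -0.08 in KO3 roots. LEA14 was the only one past the study's thresholds in roots, with 1.14 in KO1 and 0.96 in KO3 (limma adjusted p = 0.1402 and 0.164), and is named for that reason after its values were seen. Of 28 listed genes of ABA signalling, whose hormone induces many dehydrins, only HAI2 and ABF1 were measured under a name. Neither passed, with HAI2 at 0.03 in both lines and ABF1, a transcription factor that binds ABA-responsive promoter elements, at 1.02 in KO1 roots and 0.83 in KO3 roots (limma adjusted p = 0.344 and 0.347).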

How the data were processed

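Per the labels, the authors made RMA signals with Transcriptome Analysis Console and TAIR10, with no version given, and deposited them as log2 values with 2 decimals for 28583 probe sets on 17 arrays. RMA usually subtracts background, makes the arrays alike in distribution and summarises the probes of a set, but its settings are not given in the sources used here. The deposited arrays were not alike in distribution. Their medians were 2.61 to 2.67 in roots and 1.72 to 1.85 in shoots, and KO1 shoots replicate 1 had a narrower spread than the other shoot arrays. The platform table named 17504 probe sets and the study's supplementary annotation 603 more, and these 18107 were tested without a further filter. Within each organ, limma 3.58.1 (lmFit and eBayes, R 4.3.3) was fitted to the 3 lines together. Benjamini-Hochberg adjustment covered all 18107 probe sets, with a threshold of 0.05. The study's three-way ANOVA was not repeated. The shoot minus root effect was fitted over all 17 arrays. Python 3.11.15 with SciPy 1.17.1, NumPy 2.4.6, pandas 2.3.3 and matplotlib 3.10.9 gave the exact permutation tests and figures. The script was tested on simulated data with known changes. The number of arrays limits the precision.

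Genes named beside the 3 members are the other listed dehydrins, members of the other lists past the threshold, and for each member the 5 genes most alike by Pearson r, and exceptions are marked. KIN2, GOLS3, LEA14, COR15A, COR15B, HAI2 and ABF1 are further exceptions, chosen after their values were seen. Members and lists were chosen with earlier results of these data known. Alternatives were quantile normalisation within the organ, array medians subtracted, dim probe sets left out (below the 30th percentile), all probe sets, trend and robust eBayes, an unmoderated model, array weights, fits of all 17 arrays together or of just the groups compared, group medians, a replicate block and leaving out each array. The values of the lists without WT roots replicate 1 or KO1 shoots replicate 1 were added after seeing the data.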

Additional observations from a re-analysis of the deposited data

How the results depend on the processing

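The rises of COR47 and ERD10 in roots kept their direction under every alternative run, but not always their call. They lost it in 1 fit of all 17 arrays (COR47 1.42 in KO1, 1.21 in KO3 and 1.32 for both lines averaged, ERD10 1.38, 1.32 and 1.35, limma adjusted p = 0.303 to 0.618) and, at the same values, in the unmoderated model (0.295 to 0.509) and, for the single lines, with only the groups compared (0.0544 to 0.14). COR47 in KO3 roots also lost it with array weights (1.203, limma adjusted p = 0.0638). Over all probe sets, the unmoderated model called 0 higher in each of these comparisons, and array weights gave 12 in KO3 roots. The cause was not tested. Under quantile normalisation the sign reversed for COR47 (0.35) and ERD10 (0.42) in KO1 shoots, and for ERD10 in KO1 against KO3 roots (-0.0125), and with array weights for LTI30 in KO1 shoots (-0.0904), none of them called in any setting. With group medians the KO1 shoot minus root effect was -1.46 for COR47 and -1.40 for ERD10.

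With 1 array left out, the root values were 1.22 to 1.62 (COR47) and 1.23 to 1.52 (ERD10) in KO1, 1.01 to 1.41 and 1.18 to 1.47 in KO3, and 1.12 to 1.52 and 1.21 to 1.495 for both averaged. LTI30 was at 1.25 to 2.11 in KO3 roots and 1.41 to 1.84 for both averaged. Uncalled values that changed sign ran over -1.11 to 0.0783 (COR47), -1.04 to 0.0283 (ERD10) and -0.0767 to 0.23 (LTI30) in KO1 shoots, -0.21 to 0.38 (COR47) and -0.17 to 0.36 (ERD10) for both lines averaged in shoots, and -0.0917 to 0.16 (ERD10) and -0.52 to 0.34 (LTI30) in KO1 against KO3 roots. Over all alternatives run that kept both WT root arrays, the number of probe sets called also moved. Called higher were between 0 and 38 in KO1 roots (16 as reported), 0 and 40 in KO3 roots (22) and 0 and 84 for both averaged (46). Called lower were between 1 and 11 (7), 0 and 47 (17), and 0 and 76 (54). These alternatives include the fit of all 28583 probe sets.

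Same-numbered arrays deviated together only in part, so the fits were not paired: their residual correlations were -0.05 to 0.21 in roots, with 3 of 7 over 0.1 (0 of 14 for other numbers), and -0.14 to 0.28 in shoots, with 4 of 9 over 0.1 (4 of 18). The 3 root pairs over 0.1 all hold a WT array. With 2 WT root arrays, a positive value for one forces the same negative value for the other, so these root counts cannot decide the pairing. Same-numbered root pairs of KO1 with KO3 were at -0.05, 0.04 and 0.01. The 3 pairs of KO1 with KO3 shoots were all over 0.1 (0.14 to 0.28). With the replicate block COR47 was at 1.31 in KO1 roots and 1.096 in KO3 roots and ERD10 at 1.26 and 1.204, and KO1 shoots differed from KO3 shoots by -1.35 for COR47 and -1.32 for ERD10, and no call of a member changed. The block gave 17 probe sets called higher in KO1 roots and 27 in KO3 roots. Each member had 1 probe set, so the alternative with another probe set could not be run.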
